A study of Aedes aegypti and Anopheles culicifacies with 47 samples.

Results

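The brain of the yellow fever mosquito *Aedes aegypti* was compared between midnight and noon, using the 4 brain libraries labelled 12am and 12pm. They are 4 of the 31 libraries of the series with counts available here, which also hold *Aedes* olfactory tissue and both tissues of *Anopheles culicifacies*. Only *Aedes* libraries were analysed. The 12am group is wild-type female brain dissected at 12am (replicates 1 and 3), and the 12pm group is wild-type female brain dissected at 12pm (replicates 1 and 2). The third sample listed for each group was not used here. All females were 5 to 6 days old, of 1 cohort, kept with 12 h light and 12 h darkness a day. The labels do not say how many brains went into a library, and the p-values measure the spread between these libraries. *Aedes aegypti* bites by day, and the stated aim of the series was to follow the daily rhythm of the tissues behind that behaviour.

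In insects the daily clock is a feedback loop of transcription. The proteins CLOCK and CYCLE switch on genes whose products, period and timeless among them, build up in the evening and then return to the nucleus to shut their own transcription down. A small set of brain neurons carries this loop and times activity, sleep and feeding, so transcripts that differ between midnight and noon are sought in the brain. The deposited files give gene identifiers (AAEL numbers) without names, and 0 of them were found in the RefSeq gene table used here. No gene below is therefore given a name or a role, no pathway list could be filled, at most 2 identifiers are given per direction, and the brain label was not tested against marker genes.

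The libraries held 8528501 and 7575462 reads assigned to genes at 12am, and 7220075 and 10202123 at 12pm. Reads that overlapped no gene took 18.5 to 21.9% of the reads in these 4 libraries. Clock times were tested in 1 fit of all 8 *Aedes* brain libraries, 2 at each of 4 clock times, so that 6am and 6pm helped to estimate the spread. Levels are in CPM, a gene's share of the reads in genes, after TMM scaling, which evens out differences in library composition.

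One gene, AAEL008141, was far higher at midnight than at noon. It stood at 365 and 297 CPM in the 12am brains, against 11.8 and 13.03 CPM in the 12pm brains. The groups did not overlap, and the lowest midnight library was 22.8 times the highest noon library. Behind these levels were 3092 and 2173 reads at 12am and 82 and 131 reads at 12pm. AAEL008141 averaged 331 ± 48.1 CPM at 12am and 12.4 ± 0.841 CPM at 12pm (SD, n = 2 each). The log2 change was 4.73 (SE 0.22, 95% interval 4.21 to 5.25), a 26.5-fold rise (edgeR quasi-likelihood test with Benjamini-Hochberg adjustment, adjusted p = 0.00221). In bulk tissue, more RNA per cell and more cells that express a gene cannot be told apart.

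In the evening and morning brains AAEL008141 lay between its noon and midnight levels. Whether it follows a daily rhythm was not tested. At 6am its libraries read 154 and 167 CPM, and at 6pm 131 and 95.4 CPM. The clock times were fully separated, with 12pm lowest, then 6pm, then 6am, and 12am highest. The neighbours 6pm and 6am were the closest, at a log2 difference of -0.50 for 6pm minus 6am (SE 0.18), which did not pass (edgeR, adjusted p = 1.00; unadjusted p = 0.0317).

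**Figure D1:**
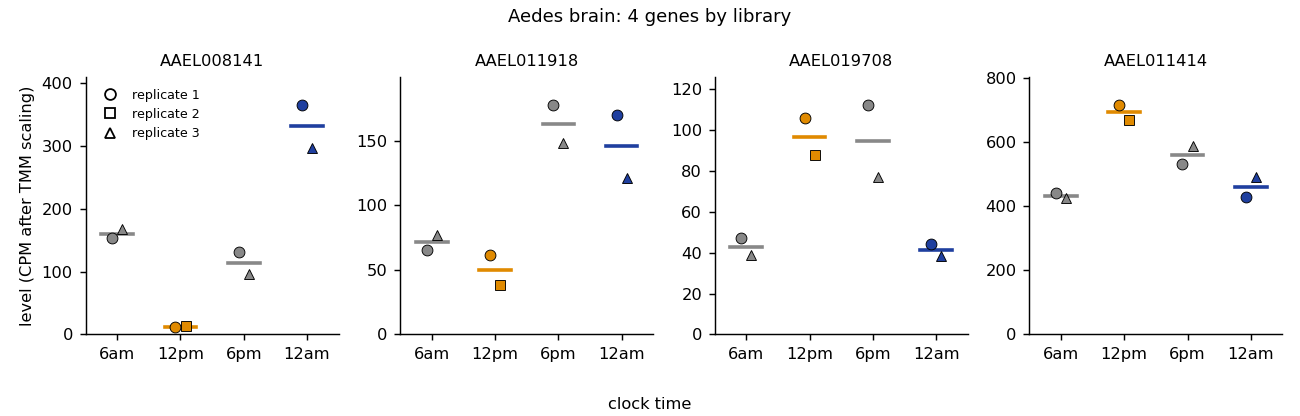
Level in CPM after TMM scaling (vertical axis, from 0) of 4 genes in each *Aedes* brain library, by clock time (horizontal axis). Points are libraries and bars are means of 2. The midnight points of AAEL008141 (365 and 297 CPM) stand far above its noon points (11.8 and 13.03 CPM). The other 3 genes are next in order of p within their direction, among genes of at least 5 CPM without overlap between groups. None of these 3 passed the adjusted test in edgeR.

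AAEL008141 was 1 of 9578 genes tested, so 0.0104% were called, and all calls were higher at midnight. DESeq2, a second count model, called 6 genes (0.0626%), 3 higher (0.0313%) and 3 lower (0.0313%) at 12am. Each of these 6 also had an unadjusted p under 0.05 in edgeR. AAEL008141 and the 3 genes described next were among the 6, and in edgeR those 3 did not pass after adjustment.

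AAEL011918 had the next smallest p among genes higher at midnight. It was at 170 and 121 CPM at 12am, against 61.4 and 38.1 CPM at 12pm. The groups did not overlap, and the evening libraries (178 and 148 CPM at 6pm) were as high as the midnight ones, while 6am (65.7 and 76.9 CPM) was near noon. Its log2 change was 1.55 (SE 0.27, 95% interval 0.89 to 2.21; edgeR, unadjusted p = 0.00103, adjusted p = 1.00; DESeq2 adjusted p = 0.00145).

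AAEL019708 had the smallest p among genes lower at midnight, with the same limits on level and overlap. It was at 44.0 and 38.1 CPM at 12am, against 106 and 87.7 CPM at 12pm. The 6am libraries (47.0 and 38.7 CPM) were level with midnight and the 6pm libraries (112 and 77.2 CPM) with noon, so this gene was split into morning and midnight on one side and noon and evening on the other. Its log2 change was -1.23 (SE 0.22, 95% interval -1.76 to -0.71; edgeR, unadjusted p = 0.00100, adjusted p = 1.00; DESeq2 adjusted p = 0.0199).

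AAEL011414 differed less. It was at 429 and 492 CPM at 12am, against 715 and 668 CPM at 12pm. Its 6am (441 and 424 CPM) and 6pm (532 and 586 CPM) libraries all lay below both noon libraries. The log2 change was -0.59 (SE 0.13, 95% interval -0.90 to -0.27; edgeR, unadjusted p = 0.00346, adjusted p = 1.00; DESeq2 adjusted p = 0.0222). None of the 4 genes lay near a damaged stretch of the files.

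Most of the brain transcriptome differed little between midnight and noon. The log2 change lay within 0.5 either way for 8215 of 9578 genes (85.8%), with a median of -0.0042 and quartiles of -0.15 and 0.13. The unadjusted p was under 0.05 for 135 genes (1.41%), of which 57 were higher (0.595%) and 78 lower (0.814%) at 12am. If no gene differed, a share of about 0.05 would be expected under that limit, and 1.41% is less. Apart from AAEL008141, these genes are therefore described below without being taken as changed. The 12am and 12pm libraries did not overlap for any of these 135, but a gap between the groups was common by itself, at 2404 genes (25.1%), 1119 higher (11.7%) and 1285 lower (13.4%). With a difference of at least 2-fold as well there were 228 genes (2.38%), 41 higher (0.428%) and 187 lower (1.95%). The count of 135 depended on single libraries. It became 208 when 12am replicate 1 was left out and 216 when 12am replicate 3 was, and 306 when 12pm replicate 1 was left out and 85 when 12pm replicate 2 was. Of the 57 higher and 78 lower genes with an unadjusted p under 0.05, those with a mean of at least 5 CPM over the 4 libraries were 48 higher, with a median log2 change of 0.49, and 56 lower, with a median of -0.73 and a range of -7.49 to -0.27. At least 2-fold apart were 7 of the 48 and 18 of the 56. Among the 48, AAEL008141 at 4.73 was followed by AAEL011918 at 1.55. The contrast of 6pm with 6am brains, which shares no library with this one, gave 364 genes (3.8%) at an unadjusted p under 0.05 and 0 at an adjusted p under 0.05 in edgeR, against 20 (0.209%) in DESeq2.

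The precision depended on the level of a gene. The median SE of the log2 change was 0.16 over 3432 genes above 50 CPM, 0.25 over 4403 genes of 5 to 50 CPM and 0.60 over 1743 genes under 5 CPM. The 95% interval of a gene in the middle of each class (the median over its genes) reached 0.388, 0.595 and 1.43 to either side. Genes with a smaller spread had an unadjusted p under 0.05 at changes as small as 0.27 and -0.27.

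**Figure D2:**
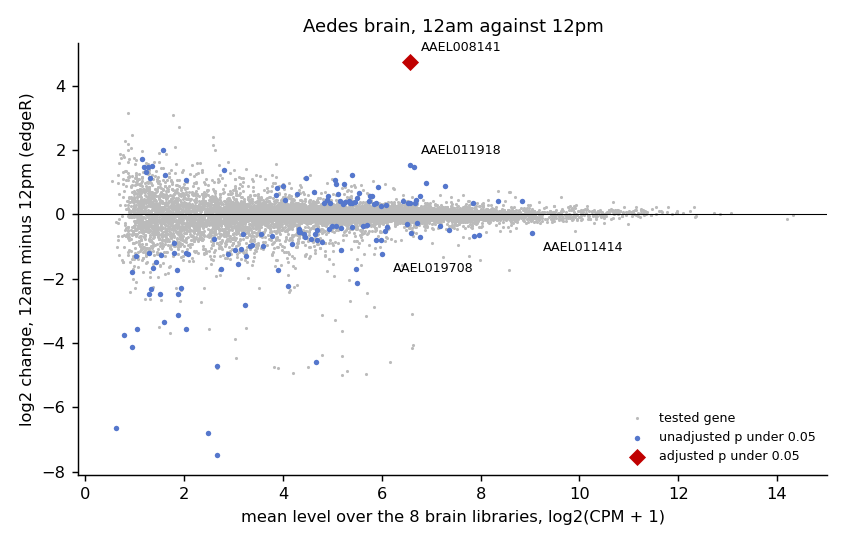
Log2 change, 12am minus 12pm, from the edgeR fit (vertical axis) against the mean level over the 8 *Aedes* brain libraries as log2(CPM + 1) (horizontal axis), 1 point per tested gene. AAEL008141 is the gene past the adjusted threshold, at 4.73, drawn as a red diamond. Blue points have an unadjusted p under 0.05, reach down to -7.49 among genes of at least 5 CPM and did not pass.

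Large differences were sought next in every pairing of libraries, among the 7835 genes that averaged 5 CPM or more in the 8 libraries, on the log2(CPM + 1) scale. AAEL008141 was the 1 gene (0.0128%) at least 2-fold above both noon libraries in both midnight libraries. In the other direction, 31 genes (0.396%) were at least 2-fold below both noon libraries in both midnight libraries. These 31 genes had a median of 0.118 CPM in 12am replicate 1 and 15.7 CPM in 12am replicate 3, against 158 and 104 CPM in the 12pm libraries. They were not particular to midnight, since 6am replicate 3 was below both noon libraries for all 31, with a median of 2.82 CPM, while 6am replicate 1 had 121 CPM. The 6pm libraries had medians of 48.2 CPM (replicate 1) and 8.42 CPM (replicate 3). Of the 31, 7 had an unadjusted p under 0.05 in edgeR, 0 passed after adjustment, and 12 lay near damaged text in at least 1 file.

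Those genes belonged largely to a block that separated the midnight libraries from each other. The 12am libraries were at least 4-fold apart for 226 genes, against 106 genes for the 12pm libraries, 95 for 6am and 73 for 6pm. For 46 of the 226, 12am replicate 1 was the lower one. Their median there was 0.236 CPM, against 41.4 CPM in 12am replicate 3, and 22 of the 31 genes above were among them. All other brain libraries held these 46 genes at medians of 6.24 (6am replicate 3) to 151 CPM (6am replicate 1), with 130 and 76.6 CPM in the 12pm libraries. So this block was close to absent in 12am replicate 1, but it was chosen as lower there than in 12am replicate 3. In 12am replicate 3, 35 of the 46 were also below both 12pm libraries and 2 above both, against 2738 and 2881 of all 7835 genes.

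The other 180 genes were higher in 12am replicate 1, at a median of 23.3 CPM, than in 12am replicate 3, at 2.53 CPM. The noon libraries were split too, at 14.9 CPM in replicate 1 and 3.88 CPM in replicate 2. Both 6pm libraries were high (23.9 and 24.8 CPM), and at 6am replicate 1 (8.05 CPM) was above replicate 3 (2.72 CPM). Of these 180 genes, 96 (53.3%) were at least 4-fold higher in olfactory tissue than in brain on the log2(CPM + 1) scale, against 507 of 7835 genes (6.47%) overall. Among the 46 genes of the first block 2 (4.35%) were. Both blocks were chosen by the gap between the midnight libraries, so that gap is a description, and genes so chosen could hardly pass a test of 12am against 12pm. Whether tissue other than brain contributed these reads was not tested.

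**Figure D3:**
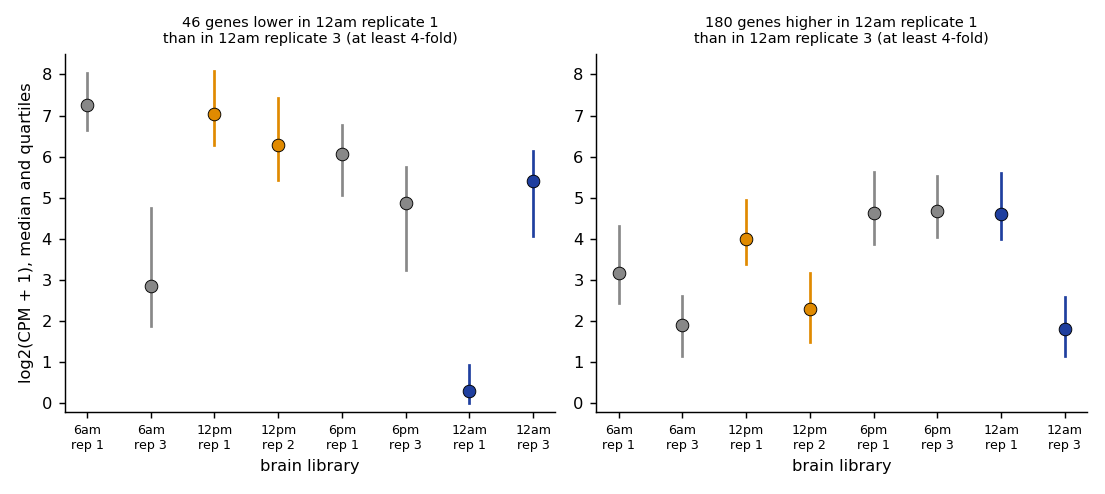
Level as log2(CPM + 1) (vertical axis) in each *Aedes* brain library (horizontal axis) of 46 genes at least 4-fold lower (left) and 180 genes at least 4-fold higher (right) in 12am replicate 1 than in 12am replicate 3. Points are medians and lines run between the quartiles over genes, and the noon libraries also differ from each other in the right block, at 14.9 and 3.88 CPM.

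Across all 7835 genes, the midnight libraries had the lowest Pearson correlation of log2(CPM + 1) among the 4 same-time pairs, at 0.930, against 0.958 for the noon pair, 0.957 for 6am and 0.950 for 6pm. By the median absolute log2 difference between the libraries of a pair, however, the 6pm pair was the least alike, at 0.281, against 0.216 for 12am, 0.187 for 6am and 0.175 for 12pm. The most alike libraries were not of 1 clock time but 12am replicate 3 and 6am replicate 3, at 0.989. AAEL008141 still told these apart, at 297 against 167 CPM. When the midnight and noon libraries were set against each other as separate ratios, 12am replicate 1 over 12pm replicate 1 and 12am replicate 3 over 12pm replicate 2, the ratios had a correlation of 0.250 across genes (Spearman -0.0484). With the noon libraries exchanged it was -0.261 (Spearman -0.343), so the sign of the correlation depended on which libraries were set together. Of the genes at least 2-fold apart in both ratios, 41 of 46 had the same direction in the first pairing (3 higher and 38 lower at 12am) and 45 of 346 in the exchanged one (1 higher and 44 lower).

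The named genes kept their direction whichever library was left out. They were chosen for groups that did not overlap, so leaving out 1 library could hardly reverse it, and the kept direction is a description. Leaving out 12am replicate 1 gave AAEL008141 a log2 change of 4.58 and leaving out 12am replicate 3 one of 4.87, with the call kept in both cases. Without 12pm replicate 1 the log2 change was 4.67 and without 12pm replicate 2 it was 4.80, but the call was then lost (edgeR, adjusted p = 0.0569 and 0.0592). AAEL011918 ranged from 1.25 to 1.94, AAEL019708 from -1.36 to -1.09 and AAEL011414 from -0.69 to -0.49 over all alternatives.

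**Figure D4:**
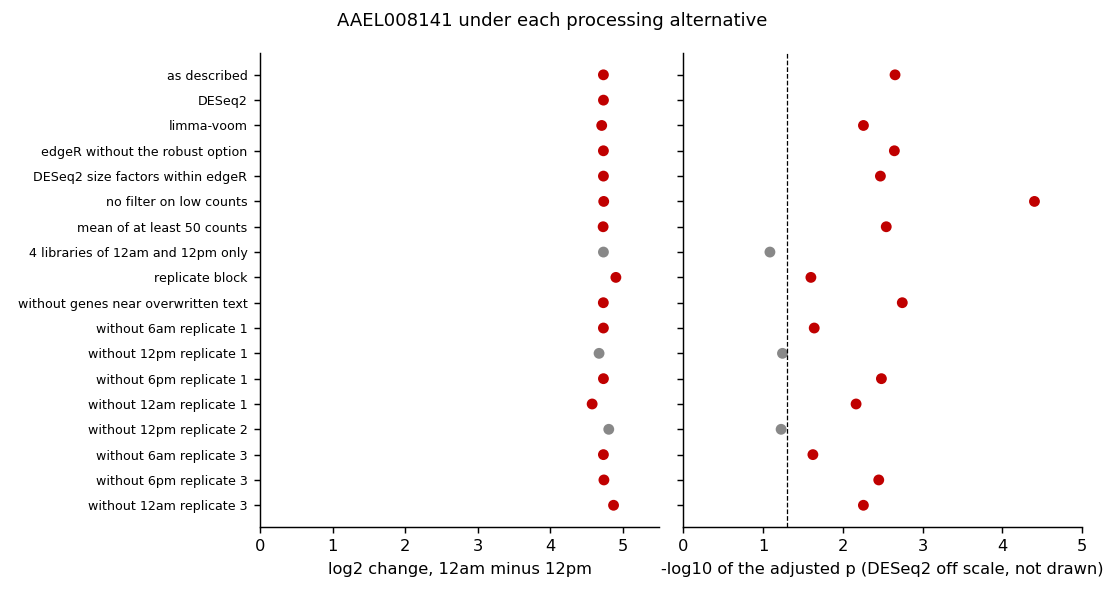
Log2 change of AAEL008141, 12am minus 12pm (left, axis from 0), and -log10 of its adjusted p (right, dashed line at 0.05) as described and under each alternative (rows). Red points passed and grey points did not, and the change stays between 4.58 and 4.90 while 3 alternatives miss the threshold (the p of DESeq2, 1.49e-75, is off the scale and not drawn).

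The other times of day were used to see where genes with an unadjusted p under 0.05 lay at 6am and 6pm. Of the 56 lower genes of at least 5 CPM, 44 (78.6%) had both their 6am and 6pm means between the noon and midnight means. Of the 48 higher genes 23 (47.9%) did, against 1104 of 7800 genes (14.2%) overall. The genes were chosen for a wide gap between noon and midnight, which makes such a position more likely, so these shares are a description. AAEL008141 was among the 23, as its 4 means show, and AAEL011918, with its 6pm mean of 163 CPM above the 12am mean of 146 CPM, was not.

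Few genes followed the course of AAEL008141. Over the 8 brain libraries, 2 of 7834 genes had a Pearson correlation with it of at least 0.9 on the log2(CPM + 1) scale, and 3 had one of -0.9 or lower. The 4 most alike had correlations of 0.917, 0.916, 0.876 and 0.868, and their log2 changes from noon to midnight were 0.15 to 0.61, none of which passed (edgeR, adjusted p = 1.00). AAEL011414 ran against it at -0.897, AAEL019708 at -0.722, and AAEL011918 with it at 0.716. The libraries share scaling and depth, and the genes were picked as extremes, so no test is given.

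Olfactory tissue (the antennae and the mouthpart appendages, as labelled) was the other tissue with libraries at both clock times, 1 at 12am and 2 at 12pm. A fit of all 16 *Aedes* libraries gave the change in both tissues and the test of the difference between them, with the lone 12am olfactory library assumed to vary like the others. These olfactory libraries held 1139430 to 4310434 reads in genes. On the scale of that fit AAEL008141 was at 307 and 246 CPM in the 12am brains and 9.83 and 11.1 CPM in the 12pm brains. In olfactory tissue it was at 922 CPM at 12am, against 43.1 and 37.9 CPM at 12pm. It thus rose in both tissues. The log2 change was 4.72 in brain (SE 0.54, adjusted p = 0.00796) and 4.50 in olfactory tissue (SE 0.57, edgeR, adjusted p = 0.0292), the 1 gene of 11442 (0.00874%) called in either. At an unadjusted p under 0.05 were 110 genes (0.961%) in brain and 1584 (13.8%) in olfactory tissue. The difference between the tissues was 0.21 (SE 0.74, 95% interval -1.38 to 1.80; edgeR, adjusted p = 0.961), which leaves room for a difference of more than 2-fold either way.

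**Figure D5:**
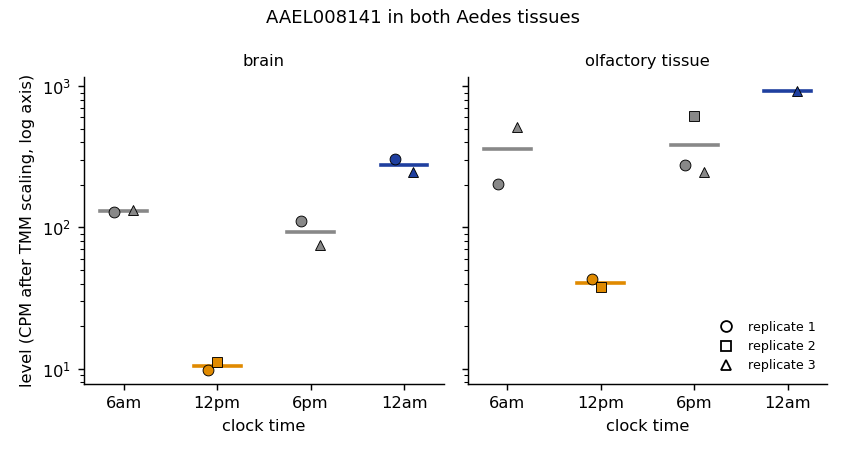
Level of AAEL008141 in CPM after TMM scaling on a log axis (vertical) by clock time (horizontal) in *Aedes* brain (left) and olfactory tissue (right). Points are libraries and bars are means, and both tissues are lowest at 12pm (9.83 and 11.1 CPM in brain, 43.1 and 37.9 CPM in olfactory tissue) and highest at 12am.

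Of the other named genes, AAEL019708 alone changed direction in olfactory tissue. AAEL011918 was also higher at 12am there, at 165 CPM against 69.8 and 41.1 CPM at 12pm, with a log2 change of 1.54 in brain and 1.55 in olfactory tissue. AAEL011414 was at 307 CPM at 12am and 437 and 249 CPM at 12pm, so its olfactory groups overlapped. Its log2 change was -0.60 in brain and -0.16 in olfactory tissue. AAEL019708 was lower at 12am in brain and higher at 12am in olfactory tissue (64.0 CPM, against 30.4 and 42.2 CPM at 12pm), and the log2 changes of -1.25 and 0.83 differed by -2.08 (SE 0.48, 95% interval -3.11 to -1.05). That difference did not pass over the 11442 genes (edgeR, unadjusted p = 0.000764, adjusted p = 0.673). In the same test 798 genes (6.97%) had an unadjusted p under 0.05 and 0 passed after adjustment, against 1 gene in DESeq2. The 798 also moved with single libraries, to 1620 without olfactory 12pm replicate 1 and 415 without brain 12pm replicate 2, and 0 passed in either case.

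The direction of change was compared between the tissues over genes of at least 5 CPM in brain. Of the 48 genes higher at midnight in brain at an unadjusted p under 0.05, 37 (77.1%) were also higher in the 12am olfactory library, against 1887 of the 3888 genes with any positive change in brain (48.5%). Of the 56 lower genes 33 (58.9%) were also lower, against 1930 of 3912 (49.3%). The brain and olfactory libraries are separate, but genes that vary together are not independent, so no test is given for these shares. No gene with at least 10 reads in each library of one group had 0 reads in both libraries of the other. Genes with fewer reads were not checked for this.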

How the data were processed

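RNA-seq libraries (NEBNext Ultra II, total RNA) were made from brain and olfactory tissue, per the labels' protocols. The authors deposited unnormalized gene counts, 1 library per file, and bcl2fastq, FastQC, STAR and HTSeq are named in the submitters' processing notes. Genome build, annotation release and strand setting: not given in the sources used here. So counts of overlapping, antisense or near-identical genes are uncertain. Lines that name no gene took 34.4 to 42.0% of reads per brain library and were left out.

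Text was overwritten in all 8 brain files (22 stretches). Unreadable lines were treated as missing, and 405 of 19804 genes (2.05%) missing in any *Aedes* library were dropped. Altered digits can go unseen, so an alternative also dropped genes within 1024 bytes before a stretch.

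Counts were fitted with edgeR (TMM, filterByExpr, robust quasi-likelihood F-test), with 1 factor for clock time and the contrast 12am minus 12pm, and the Benjamini-Hochberg adjustment ran over all genes tested, with a threshold of 0.05. SEs are approximate (absolute log2 change divided by the root of F). The steps were also run on simulated counts, drawn without differences shared between libraries of 1 replicate number. The outcome is not given here, and nothing above rests on it. Replicate numbers were checked for pairing. The difference between replicates 1 and 3 correlated at 0.439 (6am and 6pm), 0.200 (6am and 12am) and 0.169 (6pm and 12am) across genes. All were positive, so libraries of 1 number may share differences. The main fit has no term for replicate number, and 12am and 12pm share number 1 alone. With that term, as an alternative, AAEL008141 had an adjusted p of 0.0251 (edgeR).

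Named genes were the called gene and then those with the smallest unadjusted p, a mean of at least 5 CPM and no overlap between groups. The plan asked for 10 genes per direction, 14 pathway lists and cell type markers. As identifiers carry no names, 2 identifiers per direction are given, and 0 lists could be filled. The members and lists were chosen with earlier results of these data known. Fits ran in R 4.3.3 with edgeR 4.0.16, the alternatives with DESeq2 1.42.0 and limma 3.58.1. Tables were joined in Python 3.11.15 (pandas 2.3.3, numpy 2.4.6), correlations taken with scipy 1.17.1 and plots drawn by matplotlib 3.10.9.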

Additional observations from a re-analysis of the deposited data

How the results depend on the processing

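Over 17 alternatives the log2 change of AAEL008141 kept its direction at 4.58 to 4.90 and its call in 14, with adjusted p-values of 1.49e-75 (DESeq2) to 0.0818. The 3 that lost it were the fit of the 4 libraries of 12am and 12pm only (log2 change 4.73, edgeR adjusted p = 0.0818), which has fewer samples, and the fits without 12pm replicate 1 or 12pm replicate 2. In these 3 fits 0 genes were called by edgeR, with 135, 306 and 85 unadjusted p-values under 0.05, and DESeq2 on all 8 libraries called 6. Leaving out 1 library in turn gave 0 to 1 called genes and log2 changes of AAEL008141 of 4.58 to 4.87. DESeq2 called 6 genes for 12am against 12pm, 20 for 6pm against 6am and 1 for the difference between tissues, where edgeR called 1, 0 and 0; the cause was not tested. With the replicate number as a block, 1 gene was called, AAEL008141 at 4.90 (edgeR adjusted p = 0.0251), and no other call changed. In that fit 12pm replicate 2, the one library numbered 2, adds nothing to the contrast. The other 3 named genes kept their direction in all 17 alternatives and passed in DESeq2 alone. All named genes were chosen without overlap between 12am and 12pm, so a kept direction was nearly fixed by that choice. The tissue difference of AAEL008141 stayed positive in its 7 alternatives and passed in 0. With 2 libraries per clock time, 1 library can decide a call.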
